A study of Sus scrofa with 12 samples.

Results

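The cadherin and protocadherin genes were examined for binding of the transcription factor C/EBP-β in the endometrium, the lining of the uterus, of pregnant pigs. Members were the protein-coding genes on assembled chromosomes whose symbols are CDH or PCDH followed by a digit or a subfamily letter, which left out the CDHR genes. The rule found 35 genes of 19550 in the RefSeq annotation of Sscrofa11.1 (the build susScr11), 22 cadherins and 13 protocadherins. The rule itself used no measured value, but it was chosen with earlier results of these data known.

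Cadherins are membrane proteins whose extracellular repeats bind calcium and hold neighbouring cells together. The classical cadherins, of type I such as CDH1 (E-cadherin, of epithelial adherens junctions) and type II such as CDH5 (VE-cadherin, of endothelial junctions), bind catenins inside the cell and through them the actin cytoskeleton. Protocadherins carry the same kind of extracellular repeat, lack the catenin-binding tail of the classical proteins, and are best known from the nervous system, where the clustered genes give neurons their surface identity. In the endometrium, epithelial junctions are remodelled as the conceptus attaches, and endothelial junctions set the permeability of the vessels beneath. C/EBP-β, a factor of the basic leucine zipper class, takes part in the endometrial response to pregnancy.

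The libraries were chromatin immunoprecipitations sequenced from endometrial tissue of day 12 and day 15 of pregnancy, 3 per day, with a C/EBP-β antibody given in the labels for each. No breed, genotype or treatment is given. Input chromatin, 6 samples by the labels, was not used here. Whether replicates came from different animals is not stated, so a p-value covers the spread among these libraries alone, which may be technical. Each list holds summits, the single base at the top of a peak, with a score of the authors. The lists hold no read counts, so depth is unknown. Expression was not measured, and the labelled tissue could not be checked against marker genes. The tissue is a mixture of epithelium, stroma, vessels and immune cells, and a site bound in fewer cells cannot be told apart from a site bound less per cell.

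The lists were of very unequal length, and the libraries fell into 2 sets by the form of their peak names. Replicates 1 to 3 of day 12 held 6557, 33294 and 57728 summits on assembled chromosomes, and those of day 15 held 70152, 16529 and 11960. Names with a directory path marked day 12 replicate 1 and day 15 replicates 2 and 3, called set A here. The other 3 libraries, called set B, had the 3 longest lists. In day 12 replicate 1 and in day 15 replicate 3 the protein is missing from the sample part of the peak names, although the directory part gives it for day 12 replicate 1. Day 15 replicates 2 and 3 share a sample code. The pair of libraries whose sample names lack the protein was also left out, with both remaining libraries of a day required. The counts of bound genes given next were then again 4 on day 12 and 1 on day 15. All genes gave 36.2% and 42.9% under that setting.

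Few cadherin or protocadherin genes had C/EBP-β near either end on either day. A gene counted as bound on a day when at least 2 of 3 libraries had a summit within 5 kb of its start or its end. On day 12 this held for 4 of 35 genes, CDH5, CDH20, PCDH19 and PCDHA11, against 38.1% of all protein-coding genes. The day 12 count was 1, CDH5, when either day 12 replicate 2 or day 12 replicate 3 was left out and both remaining libraries were required. All genes then gave 16.6% and 15.0%. It was also 1 when 3 of 3 libraries were required, against 14.8% of all genes. On day 15 the rule of at least 2 of 3 libraries held for 1 of 35, CDH5, against 46.3%. Bound on both days was therefore 1 of 35, against 30.5%. The rule is uneven between days, since day 12 replicates 2 and 3 are of set B and on day 15 only replicate 1 is. CDH20, PCDH19 and PCDHA11 also had an end summit in day 15 replicate 1. The 2 counts therefore do not show a difference between days. CDH5 was also the 1 member with a summit near an end in all 6 libraries, a pattern of 13.1% of all genes. No summit near an end in any library was found for 20 of the 35, or 57.1%, against 29.5% of all genes.

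In every library the share of family genes with a summit near an end was below that of all genes. Within day 12 it was 1, 4 and 9 of 35 in replicates 1 to 3 (2.86%, 11.4% and 25.7%), where all genes gave 17.2%, 38.4% and 54.1%. Within day 15 it was 14, 1 and 2 of 35 (40.0%, 2.86% and 5.71%), where all genes gave 64.8%, 44.6% and 37.6%. The gap to all genes was 14.4 to 41.8 percentage points, with a mean of 28.0 ± 8.97 (SD, n = 6). The 3 libraries of set B, with the longest lists, held the 3 highest family shares, whereas for all genes day 15 replicate 2 of set A lay above day 12 replicate 2 of set B.

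**Figure D1:**
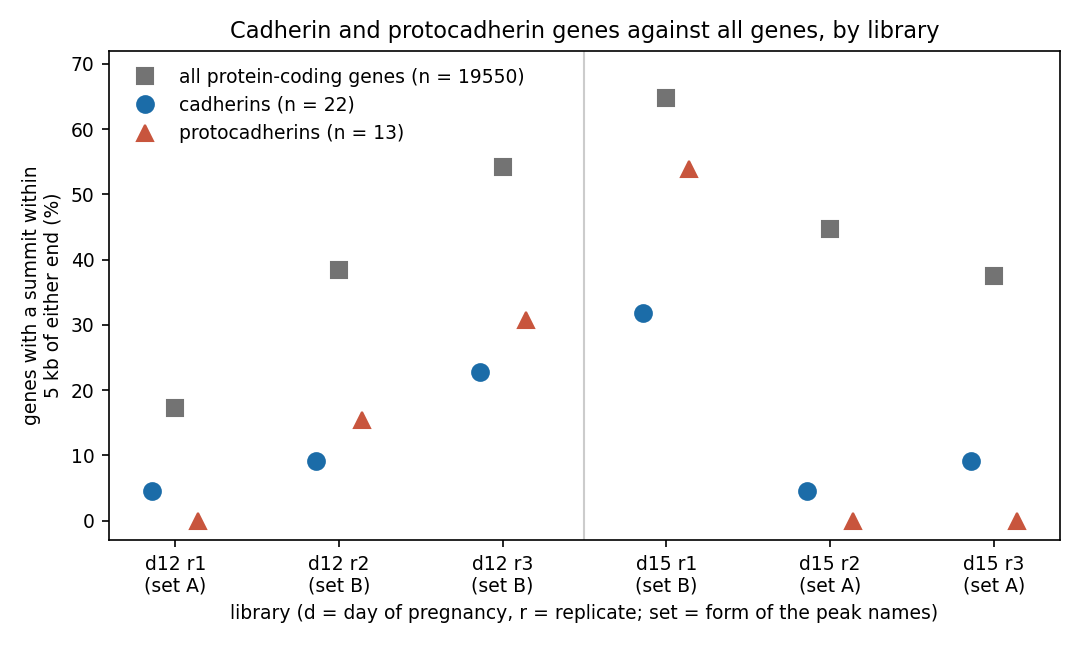
Share of genes with a C/EBP-β summit within 5 kb of either end (vertical axis, percent) in each of the 6 libraries (horizontal axis), for 22 cadherins (circles), 13 protocadherins (triangles) and all 19550 protein-coding genes (squares), 1 value per library and no error bar. Both families lie below all genes in every library, and protocadherins stand at 0 in the 3 set A libraries.

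No family gene met the rule of at least 2 of 3 libraries directly at an end. With the window narrowed to 1 kb, the rule was met by 0 of 35 family members on each day, against 21.2% of all genes on day 12 and 36.7% on day 15. Summits that close were found in 2 libraries: at PCDHA11 in day 12 replicate 3, and at CDH1, CDH13, PCDH1, PCDH9 and PCDH18 in day 15 replicate 1. The summit at CDH5 lay outside that window. Within 50 kb of an end, 18 of 35 family genes met it on day 12 and 13 of 35 on day 15 (51.4% and 37.1%), against 80% and 74.2% of all genes, and a window of that size reaches into neighbouring genes.

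Genes of this family are long and lie apart from others, so both properties were set beside the shares. The median length was 132 kb in the family, 139 kb in cadherins and 101 kb in protocadherins, against 20.7 kb in all genes. A neighbouring protein-coding gene within 10 kb was annotated for 9 of 35 family members (25.7%), against 67.6% of the annotation, and such a neighbour can bring its own summit into the window. Among genes with no neighbour that near, 3 of 26 family members were bound on day 12 and 1 of 26 on day 15, against 30.5% and 32% of all such genes. Among genes of at least 100 kb, 3 of 21 members were bound on day 12 and 0 of 21 on day 15, against 36.5% and 42%. The family share was below the comparison in both of these classes and on both days. No end summit in any library was found for 14 of the 26 members without a near neighbour, against 39.8% of such genes, and for 11 of the 21 long members, against 27.9%.

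Counting gene bodies brought the family closer to other genes. With a summit anywhere in the gene or within 5 kb, 17 of 35 members met the rule on day 12 (48.6%) and 11 of 35 on day 15 (31.4%), against 50.9% and 52.9% of all genes. The day 12 share is near that background. A summit in the body or within 5 kb was found in all 6 libraries for CDH5, CDH11, CDH13, CDH18 and CDH20, 5 of 35, against 18.2% of all genes. In no library was there one for CDH3, CDH7, CDH8, CDH9, CDH16, CDH19, CDH22, CDH24, PCDH20 and PCDHB6, 10 of 35 (28.6%), against 22.4%. Of these, CDH8 is 722 kb long, whereas PCDHB6 and PCDH20 are 4.71 and 5.76 kb. By length, it was 4 of 7 members under 20 kb, against 35.7% of such genes, and 2 of 7 of 20 to 100 kb, against 11.7%. Among longer genes it was 3 of 11 of 100 to 300 kb, against 4.72%, and 1 of 10 of at least 300 kb, against 2.58%.

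Inside the body alone, 5, 16 and 18 of 35 genes had a summit in day 12 replicates 1 to 3 (14.3%, 45.7% and 51.4%), where all genes gave 14.5%, 37.4% and 49%. In day 15 replicates 1 to 3 it was 23, 8 and 7 of 35 (65.7%, 22.9% and 20%), where all genes gave 57.5%, 33.1% and 26.4%. The values of day 12 replicates 1 and 3 are near that background. Long genes more often hold a summit, and among genes of at least 100 kb the family was below all genes in every library: 23.8%, 71.4% and 71.4% on day 12, against 34.5%, 80.6% and 89.1%, and 81.0%, 33.3% and 33.3% on day 15, against 91.0%, 55.3% and 45.9%.

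Per unit of length the family bodies held fewer summits than other genes. The density was 0.0713, 0.550 and 0.937 summits per 100 kb in day 12 replicates 1 to 3 and 1.16, 0.102 and 0.122 in day 15 replicates 1 to 3. As a ratio to the density over all gene bodies in the same library it averaged 0.258 ± 0.0916 (SD, n = 6) and ranged from 0.116 to 0.345. The ratio was 0.334 ± 0.0101 in set B and 0.182 ± 0.0586 in set A (SD, n = 3 each). Long genes in general hold fewer summits per length, and against genes of at least 100 kb alone the ratio for family genes of that length was 0.350 ± 0.0778. In the part of the body more than 5 kb from either end it was 0.359 ± 0.0632. In the flanks from 5 to 50 kb outside the genes it was 0.419 ± 0.122. The direction was the same in all 6 libraries for each of these measures.

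**Figure D2:**
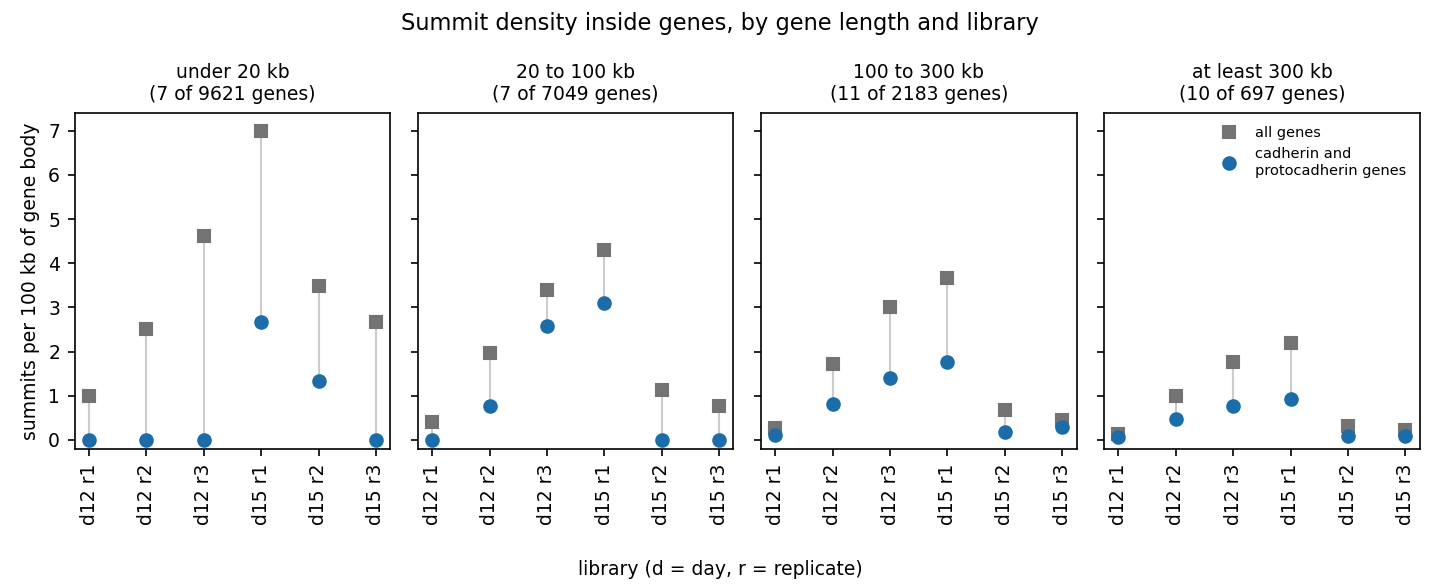
Summits per 100 kb of gene body (vertical axis) by library (horizontal axis) in 4 classes of gene length, for the cadherin and protocadherin genes together (circles) and all protein-coding genes (squares). The circle lies below the square in all 6 libraries of every class, and the 2 classes under 100 kb hold only 7 family genes each.

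Within length classes the lower density remained. Among the 10 family genes of at least 300 kb the ratio to all genes of that class ranged from 0.241 to 0.489 over the libraries. Among the 11 of 100 to 300 kb it ranged from 0.261 to 0.663. The lowest value of both classes was that of day 15 replicate 2.

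CDH5, VE-cadherin, carried the highest-ranked of the 3 sites that the family had in all 6 libraries. It is 33.6 kb long on chromosome 6, from 27108560 to 27142145. Each of the 6 libraries had 1 summit near it, and all 6 fell between 27104562 and 27104580, a stretch of 19 bases 3.99 kb below the lower end of the gene. No summit lay inside the gene in any library. The scores were 43.6, 52.5 and 49.8 in day 12 replicates 1 to 3 and 178, 76.5 and 53.3 in day 15 replicates 1 to 3. Scores grow with depth and were not compared between libraries. Within its own list the CDH5 summit ranked between the 97.2 and the 99.5 percentile, so it was near the top of the list in both days and both sets. With only the 6557 highest-scoring summits of each library kept, it was still found in 6 of 6 and was then the only member bound on either day. In those equal lists all genes gave 9.68% on day 12 and 20.3% on day 15. No other protein-coding gene lay within 5 kb of the site.

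CDH1, E-cadherin, lacked such a site. It is 80.5 kb long on chromosome 6, from 18075487 to 18155986. Its body held 0, 3 and 6 summits in day 12 replicates 1 to 3 and 7, 0 and 0 in day 15 replicates 1 to 3. Near its ends there were 0, 0 and 1 summits on day 12 and 3, 0 and 0 on day 15, so it was bound near an end on neither day. All of these came from set B, and the 3 libraries of set A had none. The highest-ranked place in the gene was shared by the 3 set B libraries at 18140336 to 18140387, 15.6 kb inside the upper end, with a mean percentile of 87.2. A second place shared by the same libraries lay at 18143587 to 18143719, 12.3 kb from that end. The upper part of the gene therefore held the summits that recurred between the days. The summit below the lower end of CDH1 lay inside TANGO6.

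**Figure D3:**
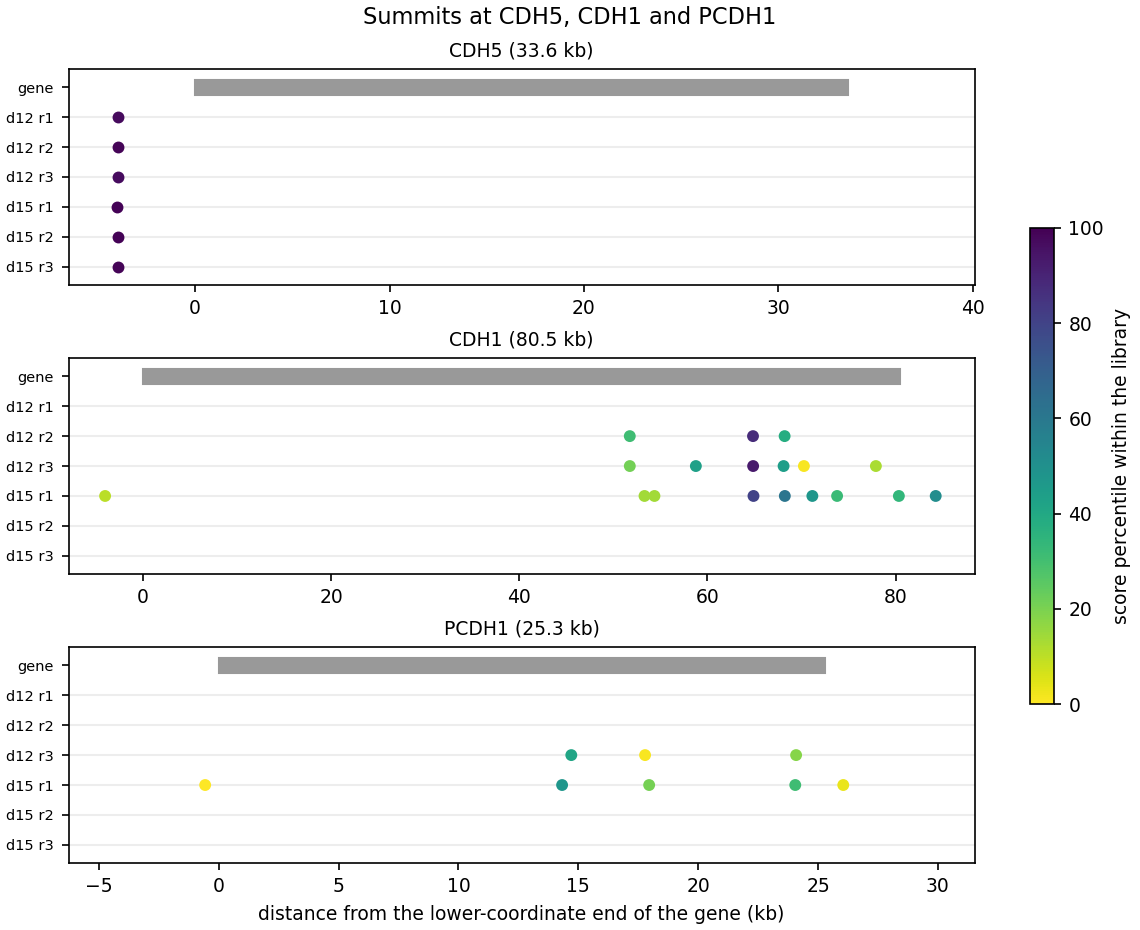
Positions of all summits at CDH5, CDH1 and PCDH1 (horizontal axis, kb from the lower-coordinate end of the gene, whose extent is the grey bar) in each library (rows), coloured by the score percentile of the summit in its own list. At CDH5 a single high-ranked summit stands at the same place in all 6 libraries, whereas CDH1 and PCDH1 have none in day 12 replicate 1 or in day 15 replicates 2 and 3.

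The other type I cadherins had no recurrent summit near an end. CDH2, N-cadherin of neural and mesenchymal cells, held 0, 1 and 4 summits in its body on day 12 and 4, 0 and 0 on day 15, again from set B alone. CDH3, P-cadherin, lies beside CDH1 and had no summit in its body or within 5 kb. CDH4, R-cadherin, and CDH15, M-cadherin of muscle, each had 1 summit near an end, in day 15 replicate 1. Together 0 of 5 type I genes were bound near an end on either day, against 38.1% of all genes on day 12 and 46.3% on day 15. In at least 1 library 3 of 5 had such a summit, near the 70.5% of all genes.

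Among the 13 type II cadherins, CDH5 and CDH20 were bound near an end on day 12 and CDH5 on day 15. Against the 38.1% and 46.3% of all genes, that was 2 and 1 of 13. No summit near an end was found in any library for 10 of the 13, against 29.5% of all genes. CDH20 (208 kb, chromosome 1) had its end summit 1.45 kb above the gene, at 160026390 to 160026472, in the 3 set B libraries. Its body held 1, 3 and 5 summits on day 12 and 7, 1 and 1 on day 15. The most widely shared place in the body, 159953184 to 159953214, had a summit in 5 libraries, all except day 12 replicate 1, with a mean percentile of 86.9.

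CDH11, a cadherin of mesenchymal cells, was the type II gene with a body site in all 6 libraries. The summits fell between 25790319 and 25790567 on chromosome 6, 7.70 kb inside the lower end, at a mean percentile of 71.6. It was found in 5 of 6 equal lists and in 4 libraries with scores of at least 10. Joining within 100 bp in place of 200 bp also ended the call for this site, since its summits spread over more bases than those of CDH5. CDH11 otherwise had few summits, with 1, 1 and 1 in its body on day 12 and 2, 1 and 3 on day 15. CDH6 held 0, 3 and 6 body summits on day 12 and 3, 0 and 0 on day 15. CDH18, the longest member at 1027 kb, held 1, 3 and 10 on day 12 and 7, 1 and 1 on day 15, none near an end. CDH12 (990 kb) held 0, 4 and 3 on day 12 and 2, 1 and 3 on day 15, and its most shared place had low ranks, with a mean percentile of 35.0. CDH12 and CDH18 thus had summits inside the body and none near an end, whereas CDH7, CDH8, CDH9 and CDH22, also over 100 kb, had neither. Of all genes of 100 to 300 kb 4.72% had neither, and of those of at least 300 kb 2.58%.

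CDH13, T-cadherin, which is anchored to the membrane by a lipid and lacks the cytoplasmic tail, held the most summits of any member. Over its 1022 kb on chromosome 6 there were 3, 15 and 19 body summits on day 12 and 24, 3 and 1 on day 15. One place, 5592822 to 5592854, was shared by all 6 libraries, 239 kb inside the upper end, at a mean percentile of 93.1. It was still found in 6 of 6 equal lists. Its scores were 11.2, 64.0 and 49.3 on day 12 and 72.4, 55.7 and 35.9 on day 15, and in day 12 replicate 1 its percentile was lowest, at 70.1. Places at 5260451 to 5260484 and 5236365 to 5236461 were found in 5 libraries each, all except day 15 replicate 3.

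CDH23, a cadherin of the tip links of hair cells, held 1, 5 and 10 body summits on day 12 and 15, 0 and 0 on day 15. Several of its recurrent places lie within VSIR, a gene inside the annotated extent of CDH23, and cannot be given to one gene or the other. Summed over the 6 libraries, CDH13 and CDH23 held 6.36 and 6.64 body summits per 100 kb and CDH18 2.24, below the 19.9 of CDH1 and the 23.7 of PCDH1. CDH17 held 1 body summit each in day 12 replicate 3 and day 15 replicate 1, and CDH16, the kidney cadherin, held none.

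**Figure D4:**
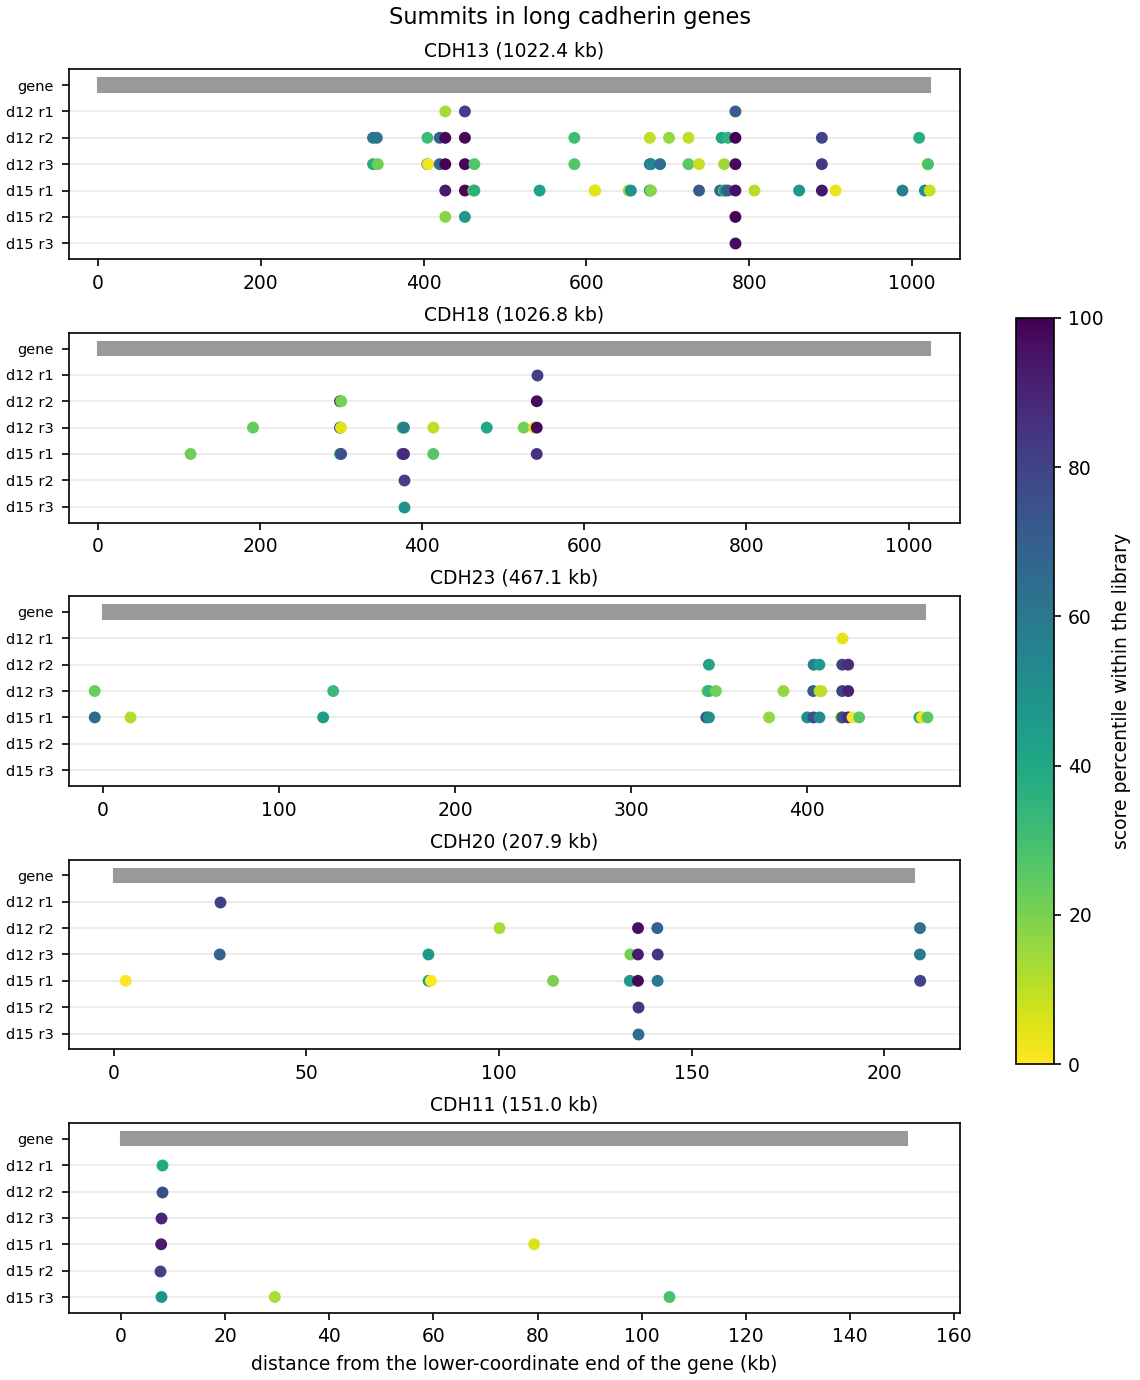
Positions of summits in CDH13, CDH18, CDH23, CDH20 and CDH11 (horizontal axis, kb from the lower-coordinate end of the gene, grey bar; rows are libraries), coloured by score percentile in the library's own list. CDH13 and CDH11 each have 1 place found in all 6 libraries, and most other places appear in day 12 replicates 2 and 3 and day 15 replicate 1 alone.

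The protocadherins had no gene bound near an end on day 15 and 2 of 13, PCDH19 and PCDHA11, on day 12, where all genes gave 46.3% and 38.1%. Both genes also had an end summit in day 15 replicate 1, the only set B library of that day. Their counts per library were 0, 2 and 4 of 13 on day 12 and 7, 0 and 0 on day 15. Those of cadherins were 1, 2 and 5 of 22 on day 12 and 7, 1 and 2 on day 15. The shares of all genes in the same libraries were 17.2%, 38.4% and 54.1% on day 12 and 64.8%, 44.6% and 37.6% on day 15. The difference, cadherins minus protocadherins, averaged -3.03 percentage points ± 11.5 (SD, n = 6), smaller than its spread between libraries, and it was positive in the 3 set A libraries and negative in the 3 set B libraries. It was 5.30 with equal lists, where CDH5 and, in 1 library, CDH10 made up all of it. The 2 groups were therefore not separated by their share of genes with a summit near an end. Body density as a ratio to all genes averaged 0.303 ± 0.0989 in cadherins and 0.173 ± 0.124 in protocadherins (SD, n = 6). It was higher in cadherins in every library, though by little in day 15 replicate 1 (0.331 against 0.312). The 4 other cadherins averaged 0.548, whereas type I and type II each averaged 0.222. Clustered protocadherins averaged 0.609, from 2 genes, and the 11 non-clustered ones 0.150. Type II cadherins lay below the protocadherins in the 3 set B libraries and above them in the 3 set A libraries. Type I cadherins lay above the protocadherins in set B and stood at 0 in set A. In the flanks the ratio averaged 0.517 in cadherins and 0.254 in protocadherins. These differences were not tested.

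PCDH19, on the X chromosome, had its end summit 4.78 kb above the gene at 82157909 to 82157965 in the 3 set B libraries. A higher-ranked place in the same libraries lay 42.3 kb inside, at 82110823 to 82110862, with a mean percentile of 87.7. PCDHA11 belongs to the alpha cluster on chromosome 2, whose genes share their last exons, and its annotated extent overlaps several unnamed neighbours, so its summits cannot be given to it alone. It held 0, 4 and 5 body summits on day 12 and 7, 0 and 0 on day 15. PCDHB6, of the beta cluster, had none.

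Among the non-clustered protocadherins, long genes again held summits deep inside. PCDH9 (933 kb) held 0, 4 and 9 body summits on day 12 and 7, 1 and 0 on day 15. PCDH11X (729 kb) held 0, 2 and 3 on day 12 and 3, 0 and 2 on day 15. PCDH15 (858 kb), which pairs with CDH23 in hair cells, held 2 in all, both in day 15 replicate 1. In day 12 replicate 1 there was a body summit in 0 of 13 protocadherins and 5 of 22 cadherins, against 14.5% of all genes. PCDH12, a protocadherin of endothelial cells, had 1 body summit in each of day 15 replicates 1 and 2 and none near an end, unlike CDH5. Both ranked low in their lists, at percentiles of 2.32 and 19.3. PCDH1, known from epithelium, held 0, 0 and 3 on day 12 and 3, 0 and 0 on day 15.

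**Figure D5:**
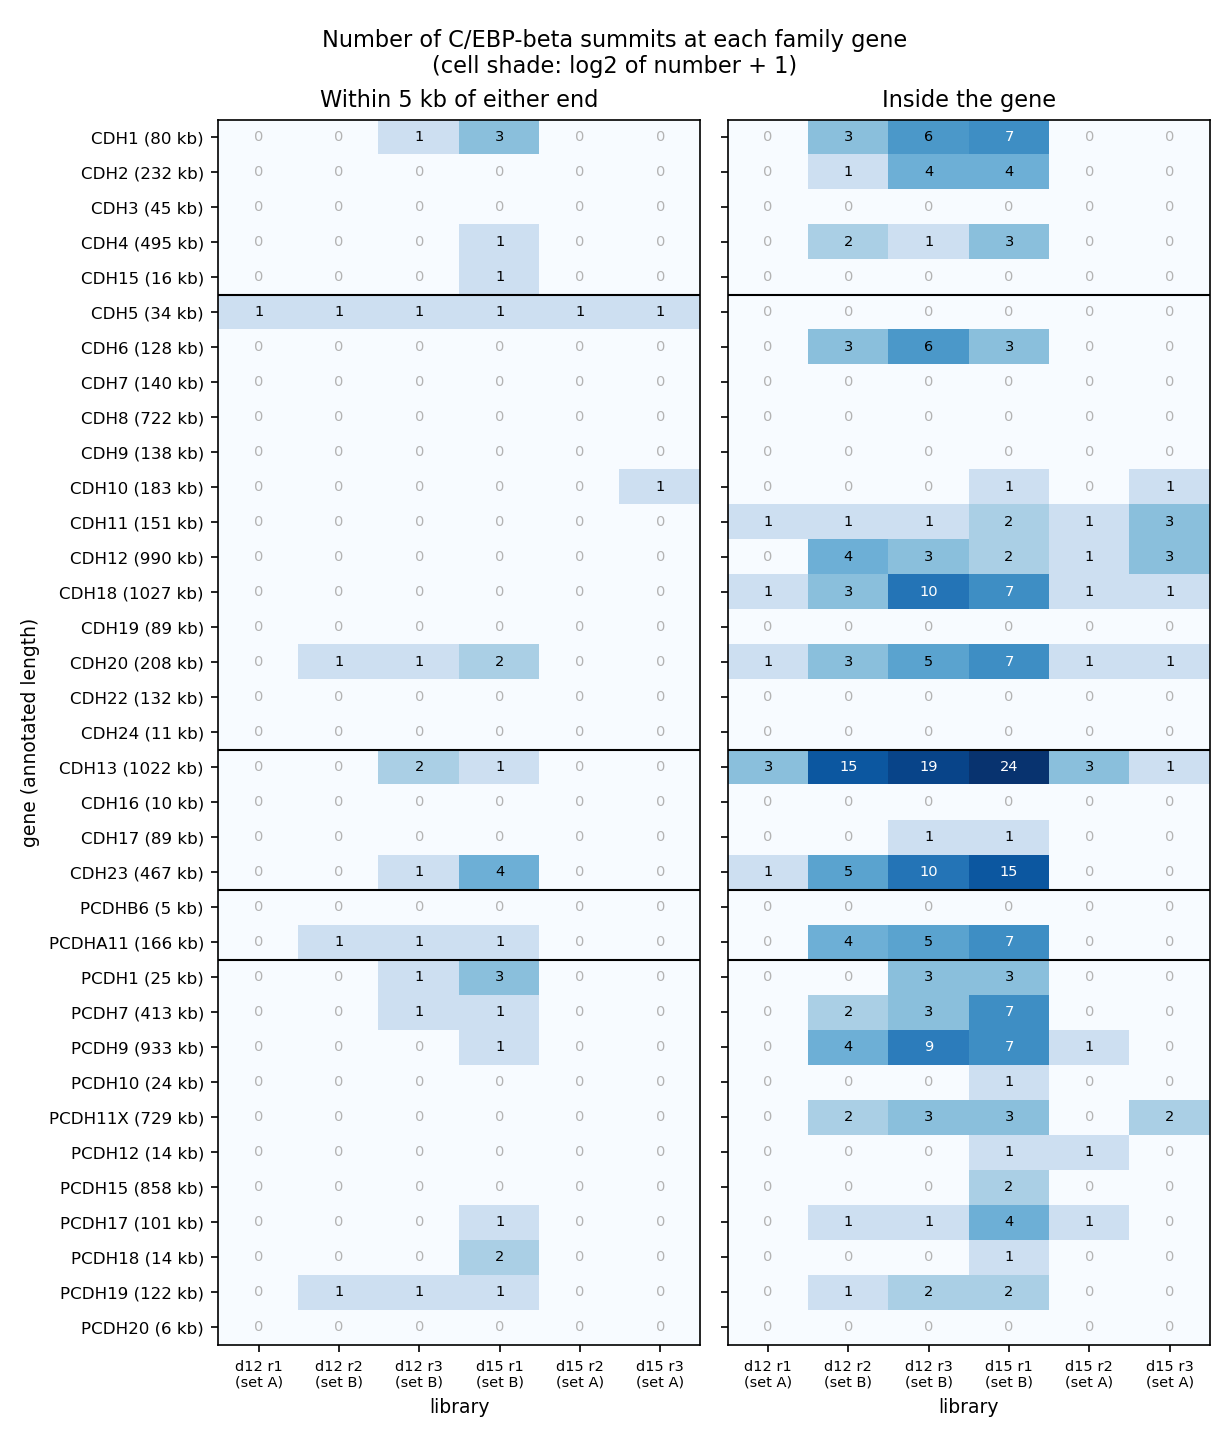
Number of summits within 5 kb of either end (left panel) and inside the gene (right panel) for each of the 35 genes (vertical axis, with annotated length) in each library (horizontal axis). Horizontal lines divide, from the top, type I, type II and other cadherins, then clustered and non-clustered protocadherins, and colour is log2 of the number + 1. CDH5 is the only gene with a left-panel summit in all 6 libraries, and CDH13 has the most inside the gene.

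Joined within 200 bp, the summits at family genes made 183 regions. Of these 60.1% came from 1 library, against 49.9% of the 67144 regions at all genes. The 3 regions found in all 6 libraries, at CDH5, CDH11 and CDH13, were 1.64% of the family's, against 3%. At least 4 libraries shared 11 regions (6.01%, against 12.4%). Regions seen only in set B libraries numbered 162 (88.5%, against 75.2%), and those seen only in set A numbered 3, at CDH10 and CDH11 (1.64%, against 5.37%). The 3 set B libraries without any of set A shared 22 regions (12.0%), a share near the 12.3% of all genes. By day, 0 regions were in 3 of 3 libraries of day 15 and 0 of 3 of day 12, against 1.21%, and 0 the other way, against 0.119%. The number of regions shared by all libraries examined was 2 when day 15 replicate 1 was left out, and 5 when either day 12 replicate 1 or day 15 replicate 3 was.

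Family summits ranked near the middle of their lists. Their median score percentile was 54.3 and 43.7 in day 12 replicates 2 and 3 and 44.7, 45.9 and 49.5 in day 15 replicates 1 to 3. In day 12 replicate 1 it was 75.4, over 8 summits only. The median of summits at all genes was between 48.1 and 50.5.

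No member differed between days in every library. A summit near an end in 3 of 3 libraries of day 15 and 0 of 3 of day 12 was found for 0 of 35 genes, against 2.83% of all genes, and the reverse for 0, against 0.0307%. In the body or within 5 kb both counts were again 0, against 2.16% and 0.0358%. The mean family share near an end was 13.3% ± 11.5 on day 12 and 16.2% ± 20.7 on day 15 (SD, n = 3 each). The difference of 2.86 points was below the spread between replicates. It was 1.43 points within set A and 21.4 within set B, and its direction turned when day 15 replicate 1 was left out (-9.05) or day 12 replicate 1 was (-2.38). All genes gave 36.6% ± 18.5 and 49.0% ± 14.1.

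The set of peak names divided the family, and all genes as well, more than the day did. In 3 of 3 set B and 0 of 3 set A libraries a summit near an end was found for 3 of 35 genes, CDH20, PCDH19 and PCDHA11. That was 8.57%, near the 5.87% of all genes. In at least 1 set B and no set A library it was found for 13 of 35 (37.1%), against 22%. With the gene body included there were 7, CDH1, CDH2, CDH4, CDH6, PCDH7, PCDH19 and PCDHA11 (20%, against 8.25%). The mean share near an end was 3.81% ± 1.65 in set A and 25.7% ± 14.3 in set B (SD, n = 3 each), where all genes gave 33.1% and 52.5%. By day all genes gave 36.6% and 49.0%, so they too differed more between the sets. The sets also differ in list length, and their part in these values was not tested.

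The number of summits in each gene and 5 kb either side, relative to the list length, was compared between days by a two-sided exact permutation test over the 6 libraries. Of 15166 genes with any summit, 25 were family members. No gene passed, since 3 against 3 libraries cannot give a p below 0.1, and the smallest Benjamini-Hochberg adjusted p was 0.995. The number of genes at an unadjusted p under 0.05 was 0. At the smallest possible p stood 2 members, CDH6 and PCDH19, both lower on day 15, or 8% of the 25, against 9.24% of all genes tested. Without division by list length there were 0 members, against 4.23%.

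Genes that work with cadherins were taken from lists of their roles and counted by the same rule of at least 2 of 3 libraries within 5 kb of an end. Of 17 partners of the adherens junction, 8 were bound on day 12 and 11 on day 15. A summit near an end in all 6 libraries was found for 4 of 17, against 13.1% of all genes. These were CTNNA1 and JUP (alpha-catenin 1, which links cadherins to actin, and plakoglobin, of adherens junctions and desmosomes), CTNNA3 and NECTIN2. CTNNB1, beta-catenin, had a summit in 1 library of day 12 and 3 of day 15. Of 12 desmosomal genes, 4 were bound on day 12 (DSC1, DSC2, PERP and PKP2) and 0 on day 15, with 8 of 12 having a summit in at least 1 library of set B, near the 69% of all genes, and 0 of 12 in set A, against 48.5%. Of 16 other genes of the cadherin superfamily, such as the FAT, DCHS, CELSR and CDHR genes, 3 were bound on each day. CDHR4 alone had a summit in all 6 libraries, 1 of 16, below the 13.1% of all genes. Of 9 genes for transcription factors known to repress cadherins, 3 met the rule on day 12 and 6 on day 15. TCF3 and SNAI2 had a summit in all 6 libraries, 2 of 9, against 13.1% of all genes. All genes gave 38.1% on day 12 and 46.3% on day 15. Junction partners were above that background on day 15 (11 of 17) and, by less, on day 12 (8 of 17). The repressors were above it on day 15 (6 of 9). The other superfamily genes were below it on both days, and the desmosomal list was below it on day 15. On day 12 the desmosomal list (4 of 12) and the repressors (3 of 9) were near the background. These are descriptions of short lists, with no test.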

How the data were processed

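C/EBP-β binding was measured by chromatin immunoprecipitation and sequencing in 3 libraries of day 12 and 3 of day 15. The submitters' processing notes list MACS2 2.1.2, Bowtie2 2.3.5.1 and SAMtools 1.9, and name susScr11 as the genome build. Caller threshold, handling of inputs and duplicates, and pooling: not given in the sources used here. In the deposited files each summit carries the authors' score, on the −log10 scale of either p or q, without a statement of which. Because depth raises it and is unknown, the score was used to order and select summits inside one list.

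Gene positions came from the RefSeq table of Sscrofa11.1, which gives start and end without strand or sequence. Distances are therefore to either end, and the promoter sequences and motifs planned were not analysed. Coordinates count from 1. Of 198341 summits, 196220 on the assembled chromosomes were used, with a summit within 5 kb counted to every gene it reached. Densities are summits per 100 kb of body summed over genes. The permutation test used log2(number + 0.5) minus log2 of the list length, with Benjamini-Hochberg adjustment and a threshold of 0.05. Counts over members were set beside all protein-coding genes, with no test.

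The members, lists and tests were chosen with earlier results of these data known. A rule named 11 genes with values: CDH1 and CDH5, members with end summits in at least 4 libraries or differing by at least 2 libraries between days, the 5 members with most body summits, and the longest members with no end summit. All other members were named after their values were seen. Whether same-numbered replicates are pairs could not be decided from the lists. Scripts ran in Python 3.11.15 with NumPy 2.4.6, pandas 2.3.3, SciPy 1.17.1 and Matplotlib 3.10.9 and were tested on simulated data. Alternatives covered score minimum, equal lists, windows, joining distance, libraries required, each library left out, a replicate block and the peak-name sets. Those chosen after seeing the data were the inner body, long genes only, no scaling by list length, and leaving out both libraries whose names lack the protein.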

Additional observations from a re-analysis of the deposited data

How the results depend on the processing

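The count of family genes bound near an end on day 12 was 4, against 38.1% of all genes. It was 2 with scores of at least 5 (all genes 26.6%), 1 with scores of at least 10 (14.0%) and 1 with equal lists (9.68%). It was 1 when 3 of 3 libraries were required (14.8%) and 0 within 1 kb (21.2%). Within 50 kb it was 18 (80%), and with the gene body included 17 (50.9%). Leaving out 1 library gave 1 to 4. The 1 came without day 12 replicate 2 (all genes 16.6%) or without day 12 replicate 3 (15.0%), with both remaining libraries required. The day 15 count was 1 under the score, list and library settings and without each library, where all genes gave 20.3% to 46.3%. It was 0 within 1 kb (all genes 36.7%), 13 within 50 kb (74.2%) and 11 with the gene body (52.9%). Cadherins minus protocadherins, -3.03 points, turned to 4.20 and 3.50 with scores of at least 5 and 10, 5.30 with equal lists, 8.45 within 50 kb and 6.53 with the body, and ran from -5.45 to 0.769 with 1 library left out, above 0 only without day 15 replicate 1. The day difference, 2.86 points, was -1.90 within 50 kb and 21.4 within set B, and ran from -9.05 to 9.52 with 1 library left out. The body density ratio, 0.258, was 0.359 in the inner body and 0.350 for genes of at least 100 kb, both chosen after seeing the data, and stayed below 1 in each setting run. Regions shared by every library were 3, 2 when joined within 100 bp, and 2 to 5 with 1 library left out. The counts of 3 libraries of a day against 0 of the other stayed at 0 in both directions in each setting run. The cause of these changes was not tested.

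Whether replicate numbers pair the libraries could not be decided. Deviations of same-numbered libraries correlated at -0.46, -0.10 and -0.28, and no library correlated best with its own number. Each same-numbered pair joined a set A library with a set B library. Correlations between days were positive within a set (0.227 to 0.390) and negative across sets. With the replicate block the day difference was 2.86 ± 30.2 points (SD of 3 paired differences), and 5 members stood at the smallest paired p of 0.25, against 2 at the smallest unpaired p, 1 with equal lists and 0 without scaling by list length. Depth is unknown, and the short lists of set A limit what absence there shows.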
